A study of Mus musculus with 4 samples.

Results

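The liver makes most of the proteins of the complement and coagulation systems, and 37 such genes were followed here: 16 of complement, 17 of coagulation and fibrinolysis, and 4 other abundant plasma proteins. The genes were listed by name, and each was read from the brightest probe set that carried its symbol alone, by mean log2 signal over 4 arrays. A probe set is a group of short probes that report the level of 1 transcript region. This gave 36 genes of 18193 named on the arrays, 15 of complement, all 17 of coagulation and all 4 others. C3, the central component of complement, had no probe set with that single symbol and was not analysed here.

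Whole-liver RNA of male mice was hybridised to Affymetrix arrays, with 1 array for each of 4 groups. The groups were LASS2-/- mice on a high-fat diet, wild-type mice on a high-fat diet, LASS2-/- mice on chow and wild-type mice on chow, and the arrays are called LASS2-/- HFD, WT HFD, LASS2-/- chow and WT chow after their labels. The high-fat diet held 60% of calories as fat and the chow 10%, and mice were 3 weeks old when the diets began. Neither the making of the LASS2 allele nor the number of mice behind an array is stated in the labels.

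Lass2 is an older name of Cers2, a ceramide synthase of very-long-chain ceramides. Its log2 signal was 12.32 on LASS2-/- HFD, 12.25 on WT HFD, 12.32 on LASS2-/- chow and 12.46 on WT chow. The LASS2-/- array was below the WT array on chow and above it on high-fat diet. Whether the probe set lies in the deleted part of the gene was not determined, so each genotype direction below rests on the labels. Alb, which encodes albumin and marks hepatocytes, lay between 15.02 and 15.27 on the 4 arrays. With no replicate arrays, no value has an error between animals.

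Complement is a cascade of plasma proteases. The classical, lectin and alternative pathways each assemble an enzyme that cleaves C3, and the terminal components then build a pore in the target membrane, the membrane attack complex. Coagulation is a second cascade, in which clotting factors, several of them dependent on vitamin K, lead to thrombin, and thrombin turns fibrinogen into fibrin. Hepatocytes secrete most of these proteins, while properdin and some others come mainly from blood and immune cells.

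The high-fat diet went with lower signal of many of these genes. Mean effects were tested with limma, which fitted diet and genotype together on the 4 arrays over all 12444 genes that passed a filter on dim signal. Of the 36 members, all of which passed that filter, 12 fell with the high-fat diet, 0 rose and 24 did not pass at an adjusted p of 0.05, where 5.02% of all genes fell, 6.16% rose and 11.2% passed in either direction. The 12 were C8b, C6, C2, C8a and C9 of complement, Fgb, Fgg, Kng1, F10 and Proz of coagulation, and Fetub and Ahsg. By system, 5 of 15 complement members, 5 of 17 coagulation members and 2 of 4 others fell. The median log2 ratio of high-fat diet over chow was -0.15 in LASS2-/- and -0.20 in wild type for complement, and -0.18 and -0.18 for coagulation, against 0.00 and 0.02 over all genes. In LASS2-/- the complement median was -0.07 with quantile normalization and -0.07 with equal array medians, and the coagulation median -0.07 and -0.10. The difference between the systems was not tested.

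**Figure D1:**
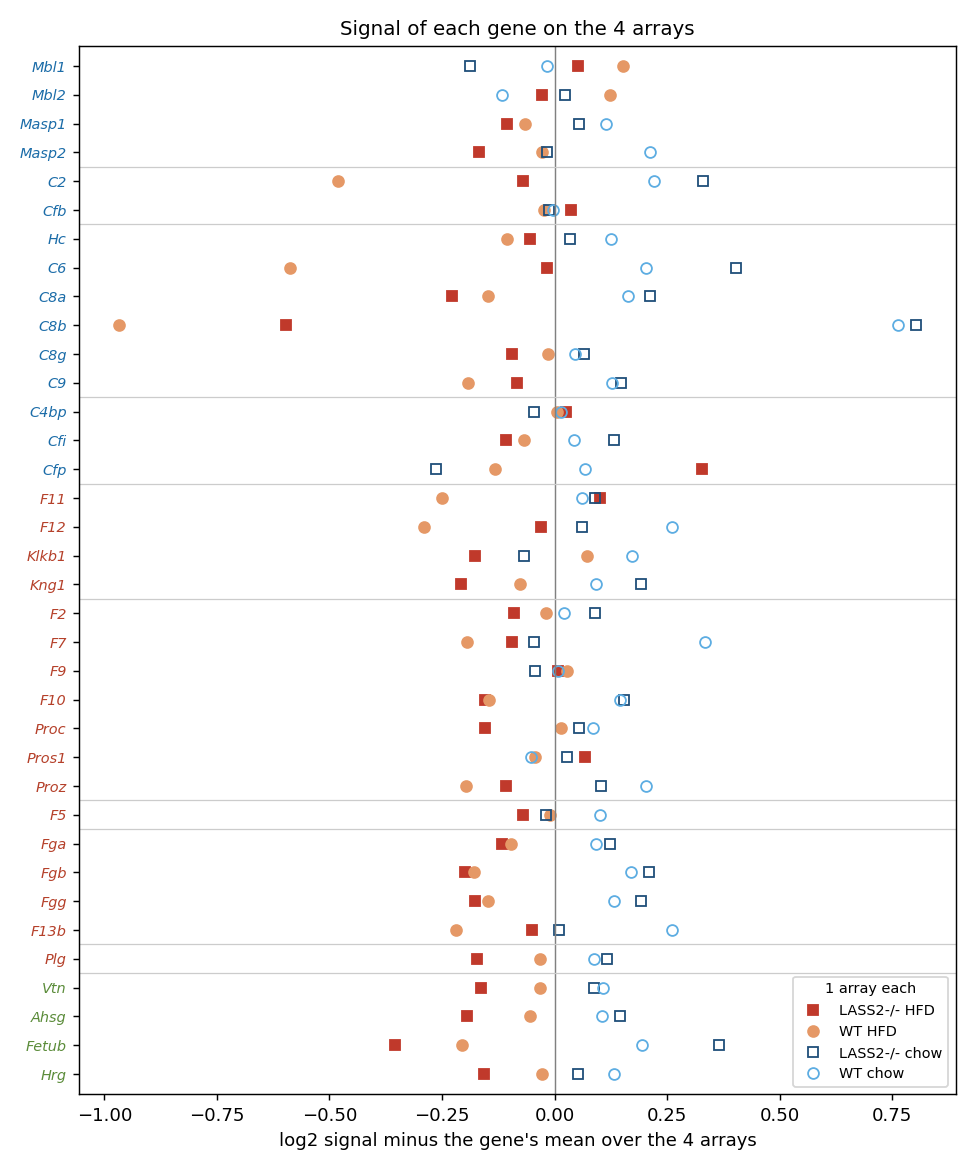
Log2 signal of each member on the 4 arrays, as the difference from that gene's mean over the arrays. Squares are LASS2-/-, circles wild type, filled symbols high-fat diet and open symbols chow, with 1 array each. Gene names are blue for complement, red for coagulation and green for other plasma proteins. In 26 of 36 genes both filled symbols lie left of both open ones.

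Both high-fat arrays lay below both chow arrays in 26 of the 36 members, 10 of complement, 12 of coagulation and all 4 others, where 23.3% of all genes did so. Masp1 and Masp2 are among the 26 by their brightest probe set only. The opposite order held for Mbl1 alone among the members, where 27.3% of all genes showed it. Lower signal on the high-fat diet in both genotypes held for 28 members and 30.4% of all genes. At a signal from 14 to under 17 it held for 14 of 16 members and 68.6% of genes. From 12 to under 14 it held for 9 of 12 members and 41.7% of genes. The diet ratio differed with signal: among the 274 genes with a mean log2 signal from 14 to under 17, the median log2 diet ratio was -0.17 in LASS2-/- and -0.07 in wild type, and 14.2% fell. The 16 members in that range had medians of -0.24 and -0.16, and 6 of them fell. The 7 members with a signal from 10 to under 12 had medians of -0.15 and -0.53, against 0.01 and -0.01 for the 2631 genes in that range, of which 8.4% fell. The part of the lower ratios of bright genes in those of the bright members was not tested.

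The 6 measured hepatocyte markers were also lower on the high-fat diet in both genotypes, with median log2 ratios of -0.25 in LASS2-/- and -0.03 in wild type. All have a mean signal from 14 to under 17, where 68.6% of genes were lower in both. In wild type Alb, Apoa1 and Cyp2e1 were each at only -0.01. Of the 6 markers 1 fell in limma, where 14.2% of genes in that signal range did. It was Cps1, the first enzyme of the urea cycle, at -0.41 ± 0.07 log2 (moderated standard error, limma, adjusted p = 0.00231). In whole-liver RNA, fewer cells of a type and less RNA per cell cannot be told apart. The count of 12, where 625 of 12444 genes fell, depended on the processing. It was 7 with quantile normalization and 7 with arrays shifted to equal medians, where 478 and 350 of 12444 genes fell. It was 6 with no filter, where 495 of 18193 genes fell. Without a trend of variance on signal it was 0, as over all genes, with 4 members at an unadjusted p under 0.05. With the trend, 21 members and 23.8% of all genes were under it, and the share of all genes without the trend was not counted.

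**Figure D2:**
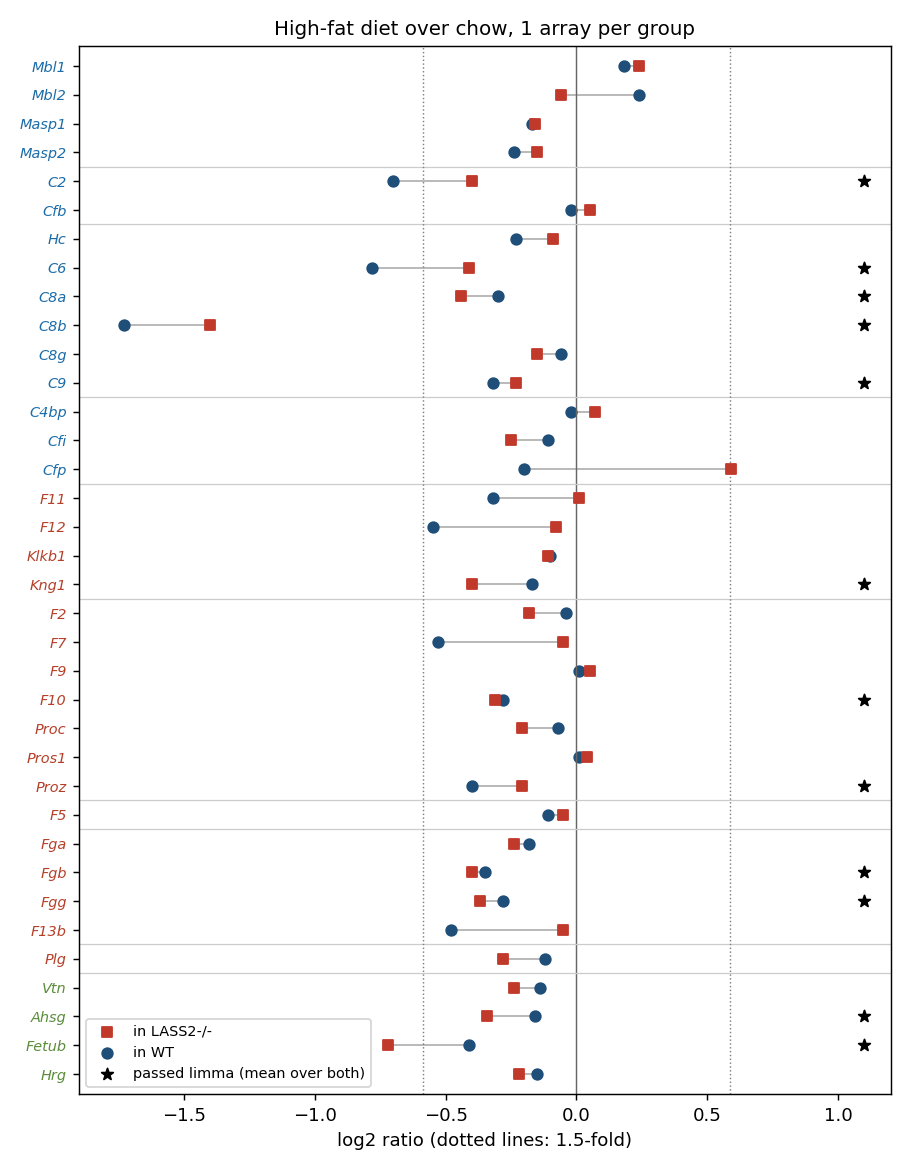
Log2 ratio of high-fat diet over chow for each member, in LASS2-/- (red squares) and in wild type (blue circles), 1 array per group. Stars mark the 12 genes that passed limma for the mean over both genotypes, and dotted lines mark 1.5-fold. C8b lies beyond 1.5-fold in both genotypes, C6 and C2 only in wild type, and Fetub and Cfp only in LASS2-/-.

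The terminal components, which form the membrane attack complex, held the largest diet ratio of the 36 members. C8b, the beta chain of component C8, had log2 signals of 11.09 on LASS2-/- HFD and 10.72 on WT HFD, against 12.49 on LASS2-/- chow and 12.45 on WT chow. Both high-fat arrays were far below both chow arrays, 2.64-fold lower in LASS2-/- and 3.32-fold lower in wild type. C8b fell by 1.57 ± 0.11 log2 over both genotypes (limma, adjusted p = 9.19e-07).

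C8a, the alpha chain, is the next protein-coding gene to C8b on the mouse reference, and its signal was 13.81 on LASS2-/- HFD and 13.89 on WT HFD, against 14.25 on LASS2-/- chow and 14.20 on WT chow. It was 1.36-fold lower in LASS2-/- and 1.23-fold lower in wild type, and it fell by 0.37 ± 0.08 log2 (adjusted p = 0.00771). C8g, the gamma chain, had 14.17 and 14.25 on the high-fat arrays and 14.33 and 14.31 on the chow arrays, LASS2-/- before wild type in each pair. It did not pass limma (adjusted p = 0.45). The 3 chains of the same protein thus had mean log2 diet effects of -1.57, -0.37 and -0.11.

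The upstream sequences of C8b and C8a are shown because these neighbours differed most in size of effect. Each is the 250 bases before the RefSeq transcription start, on GRCm38.p6, read on the gene's own strand. Capitals mark matches to a short HNF1 site (GTTAAT), a C/EBP site (TTGCNNAA) and an element of acute-phase genes (CTGGGAA), each searched on both strands. These are short forms of sequences bound by liver transcription factors, and they were kept for display out of 12 motifs after the matches were seen. The C8b sequence lies at chr4:104766067-104766316 on the forward strand and the C8a sequence at chr4:104876399-104876648 on the reverse strand.
C8b: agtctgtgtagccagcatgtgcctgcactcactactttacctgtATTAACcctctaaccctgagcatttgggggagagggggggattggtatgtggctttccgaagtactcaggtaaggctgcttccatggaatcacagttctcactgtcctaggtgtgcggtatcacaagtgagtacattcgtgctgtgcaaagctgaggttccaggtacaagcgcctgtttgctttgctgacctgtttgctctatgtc
C8a: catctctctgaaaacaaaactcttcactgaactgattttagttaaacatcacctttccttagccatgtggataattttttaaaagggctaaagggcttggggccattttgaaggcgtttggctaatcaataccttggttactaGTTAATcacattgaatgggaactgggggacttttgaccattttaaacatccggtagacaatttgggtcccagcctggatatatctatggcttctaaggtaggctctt
Each held 1 short HNF1 site, in C8b with its first base 206 bases before the start and in C8a 107 bases before it. Neither held the other 2 motifs, and no match is more than a description of these letters.

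C6, which joins the complex after C5, had signals of 11.81 on LASS2-/- HFD and 11.24 on WT HFD, against 12.23 on LASS2-/- chow and 12.03 on WT chow. Both high-fat arrays were below both chow arrays, 1.33-fold in LASS2-/- and 1.72-fold in wild type, and C6 fell by 0.60 ± 0.11 log2 (adjusted p = 0.00278). C9, the pore-forming component, had 14.25 on LASS2-/- HFD and 14.14 on WT HFD, against 14.48 on LASS2-/- chow and 14.46 on WT chow. It fell by 0.27 ± 0.08 log2 (adjusted p = 0.0341) and did not pass with quantile normalization (-0.16, adjusted p = 0.197), equal medians, the mean of all probe sets or no filter. Hc, which encodes C5, had log2 diet ratios of -0.09 in LASS2-/- and -0.23 in wild type and did not pass (adjusted p = 0.243). All 6 measured terminal components were lower on the high-fat diet in both genotypes, where 30.4% of all genes were, and 68.6% of the genes with a signal of 14 or more, which include Hc, C8a, C8g and C9. Of the 6, 4 fell, where 5.02% of all genes did.

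C2 and factor B supply the protease of the C3-cleaving enzymes, C2 in the classical and lectin pathways and factor B in the alternative pathway. C2 had signals of 11.08 on LASS2-/- HFD and 10.67 on WT HFD, against 11.48 on LASS2-/- chow and 11.37 on WT chow. Both high-fat arrays were lower, 1.32-fold in LASS2-/- and 1.62-fold in wild type. C2 fell by 0.55 ± 0.11 log2 (adjusted p = 0.00654), which became 0.0531 with arrays shifted to equal medians. Its brightest probe set is of a kind whose probes can match other transcripts, and so is the next in signal, with diet ratios of -0.53 in LASS2-/- and -0.59 in wild type. The third probe set, not of that kind, had -0.47 and -0.79. Cfb, its neighbour on the reference, stayed between 13.23 and 13.29 on all 4 arrays, with a mean log2 diet effect of 0.02 ± 0.08 (adjusted p = 0.925).

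In the lectin pathway 0 of 4 members passed limma for diet. Mbl1 and Mbl2 encode the mannose-binding lectins that recognise sugars on microbes. Mbl1 had 12.90 on LASS2-/- HFD and 13 on WT HFD, against 12.66 on LASS2-/- chow and 12.83 on WT chow, so that both high-fat arrays were above both chow arrays (0.21 ± 0.09 log2, adjusted p = 0.162). Mbl2 had log2 diet ratios of -0.06 in LASS2-/- and 0.24 in wild type. Masp1 and Masp2, the proteases that travel with these lectins, had ratios of -0.16 and -0.15 in LASS2-/- and of -0.17 and -0.24 in wild type. The other Masp2 probe set, with a mean signal of 11.53 against 11.57, had ratios of -0.04 in LASS2-/- and 0.0 in wild type. The 5 probe sets of Masp1 disagreed: the next 3 in signal had positive diet ratios in both genotypes, and the brighter 2 of these had 0.37 and 0.28 in LASS2-/- and 0.31 and 0.13 in wild type. The fifth was below the array median on all 4 arrays and has no usable ratio. With the mean of all 5 the Masp1 effect was 0.71 log2 (adjusted p = 0.0227), while the 4 without that probe set averaged 0.15, with no test.

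Among the regulators, 0 of 3 passed for diet. C4bp, which restrains the classical and lectin pathways, kept within 14.15 to 14.22 on the 4 arrays. Cfi, the protease that inactivates C3b and C4b, had log2 diet ratios of -0.25 in LASS2-/- and -0.11 in wild type (adjusted p = 0.159). Cfp encodes properdin, which stabilises the alternative pathway's enzyme and is made mainly by myeloid cells. It had 9.79 on LASS2-/- HFD and 9.33 on WT HFD, against 9.20 on LASS2-/- chow and 9.53 on WT chow, and its log2 diet ratio was 0.59 in LASS2-/- and -0.20 in wild type. A dimmer probe set of Cfp had ratios of the opposite signs, -0.12 in LASS2-/- and 0.34 in wild type.

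Fibrinogen is built from 3 chains whose genes Fga, Fgb and Fgg lie side by side on the mouse reference. Their signals followed each other over the 4 arrays. Fgb had 15.07 on LASS2-/- HFD and 15.09 on WT HFD, against 15.48 on LASS2-/- chow and 15.44 on WT chow. Fgg had 14.93 on LASS2-/- HFD and 14.96 on WT HFD, against 15.30 on LASS2-/- chow and 15.24 on WT chow. Fga had 15.14 on LASS2-/- HFD and 15.16 on WT HFD, against 15.38 on LASS2-/- chow and 15.35 on WT chow. In each chain both high-fat arrays were below both chow arrays, while LASS2-/- and WT of the same diet were at most 0.06 log2 apart. Fgb fell by 0.37 ± 0.07 log2 (limma, adjusted p = 0.00318) and Fgg by 0.33 ± 0.07 (adjusted p = 0.00883). Fga had -0.21 ± 0.07 and did not pass (adjusted p = 0.0737). Fgg did not pass with no filter on dim genes (adjusted p = 0.0707). With quantile normalization the effects were -0.24 for Fgb (adjusted p = 0.0286), -0.21 for Fgg (adjusted p = 0.0467) and -0.08 for Fga.

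The 250 bases before the start of each chain are shown because the 3 genes moved together, with the same marks as for C8b and on the same build. Fga lies at chr3:83025903-83026152 on the forward strand, Fgb at chr3:83049864-83050113 on the reverse strand and Fgg at chr3:83007474-83007723 on the forward strand.
Fga: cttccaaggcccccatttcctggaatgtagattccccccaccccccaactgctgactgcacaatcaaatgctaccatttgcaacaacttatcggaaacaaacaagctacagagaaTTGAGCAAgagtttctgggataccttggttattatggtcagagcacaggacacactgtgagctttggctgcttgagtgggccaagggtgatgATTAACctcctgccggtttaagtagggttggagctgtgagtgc
Fgb: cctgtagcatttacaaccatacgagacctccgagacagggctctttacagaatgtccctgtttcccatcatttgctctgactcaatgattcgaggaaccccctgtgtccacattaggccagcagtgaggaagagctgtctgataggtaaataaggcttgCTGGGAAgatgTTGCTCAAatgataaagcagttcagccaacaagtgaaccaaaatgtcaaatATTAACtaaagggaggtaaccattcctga
Fgg: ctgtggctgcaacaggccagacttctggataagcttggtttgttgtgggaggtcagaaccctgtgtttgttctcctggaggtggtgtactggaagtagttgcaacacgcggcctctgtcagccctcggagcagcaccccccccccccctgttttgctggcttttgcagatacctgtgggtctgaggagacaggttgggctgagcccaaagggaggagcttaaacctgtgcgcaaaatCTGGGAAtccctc
Fga and Fgb each held a short HNF1 site, 43 and 29 bases before the start, and a C/EBP site, 135 and 80 bases before it. Fgb and Fgg held the acute-phase element, 91 and 13 bases before the start. Of the 29 measured members with a RefSeq promoter in the table, 10 held the short HNF1 site (34.5%), 8 the C/EBP site (27.6%) and 5 the acute-phase element (17.2%). Of all 32851 promoter sequences of the same length, 6.43%, 9.56% and 9.1% held them, in the same order. Of the 10 members with a promoter that fell with the diet, 4 held the short HNF1 site, 3 the C/EBP site and 3 the acute-phase element. The other 9 motifs searched, on both strands, are given so that these 3 are not read alone. A STAT site (TTCNNNGAA) was in 6 of the 29 (20.7%, against 7.02% of all promoters), a nuclear receptor site (AGGTCA) in 8 (27.6%, against 14%), a TATA box (TATAAA) in 4 (13.8%, against 12.4%) and a Onecut site (ATTGAT) in 4 (13.8%, against 6.72%). A FOXA site (TGTTTAC) was in 3 (10.3%, against 3.17%) and an NF-kB site in 1 (3.45%, against 1.41%). A second Onecut form (ATCGAT), an HNF4 site (CAAAGTCCA) and a full HNF1 site were in 0, against 0.728%, 0.384% and 0.00913%. Of the 10 members that fell, 4 held the nuclear receptor site, as many as held the short HNF1 site, and 2 the STAT site. The TATA box, the first Onecut form, the FOXA site and the NF-kB site were each in 1 of the 10, and the rest in 0. Motifs may overlap. A member with several promoters in the table was counted once if any held the motif, while the background was counted per promoter sequence. These unlike units can raise the member shares against those of all promoters, by an amount that was not counted.

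F13b, the carrier subunit of the fibrin-crosslinking factor XIII, had 13.45 on LASS2-/- HFD and 13.28 on WT HFD, against 13.51 on LASS2-/- chow and 13.76 on WT chow. Its log2 diet ratio was -0.05 in LASS2-/- and -0.48 in wild type, and it did not pass (adjusted p = 0.113). Plg, which encodes plasminogen, the precursor of the fibrin-cleaving plasmin, had -0.28 and -0.12 (adjusted p = 0.103).

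Of the 4 genes of the contact system, which starts clotting on charged surfaces and releases bradykinin, 1 fell. Kng1 encodes the kininogen from which bradykinin is cut, and it had 14.91 on LASS2-/- HFD and 15.04 on WT HFD, against 15.31 on LASS2-/- chow and 15.21 on WT chow. It fell by 0.29 ± 0.08 log2 (limma, adjusted p = 0.0291), which became 0.0972 with quantile normalization and 0.139 with no filter. F12, the factor that initiates the contact pathway, had 12.61 on LASS2-/- HFD and 12.35 on WT HFD, against 12.70 on LASS2-/- chow and 12.90 on WT chow. Both high-fat arrays were lower, with a mean of -0.32 ± 0.11 log2 that did not pass (adjusted p = 0.0832). F11, the next factor in the pathway, had log2 diet ratios of 0.01 in LASS2-/- and -0.32 in wild type. Klkb1, plasma prekallikrein and the neighbour of F11 on the reference, had -0.11 and -0.10.

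Among the 7 vitamin K dependent genes, 2 fell. F10, whose active form converts prothrombin, had 13.23 on LASS2-/- HFD and 13.24 on WT HFD, against 13.54 on LASS2-/- chow and 13.53 on WT chow. The genotypes were nearly equal on each diet, and F10 fell by 0.29 ± 0.08 log2 (adjusted p = 0.0341). The second of its 3 probe sets in signal had log2 diet ratios of -0.22 in LASS2-/- and 0.01 in wild type, and the dimmest -0.26 and -0.26. Proz, a cofactor for the inhibition of activated factor X, had 12.74 on LASS2-/- HFD and 12.65 on WT HFD, against 12.95 on LASS2-/- chow and 13.05 on WT chow. It fell by 0.31 ± 0.09 log2 (adjusted p = 0.0451), and both F10 and Proz did not pass with quantile normalization, equal medians, the mean of all probe sets or no filter.

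F7, which starts clotting together with tissue factor, is the neighbour of F10 on the reference. It had 11.54 on LASS2-/- HFD and 11.44 on WT HFD, against 11.59 on LASS2-/- chow and 11.97 on WT chow, and it did not pass (adjusted p = 0.149). The high signal of F7 on WT chow set its ratio of -0.53 in wild type, against -0.05 in LASS2-/-. F2, prothrombin, had -0.18 in LASS2-/- and -0.04 in wild type, and Proc, the anticoagulant protein C, had -0.21 and -0.07. F9, the factor missing in haemophilia B, and Pros1, the cofactor of protein C, moved least in this group. F9 stayed between 13.23 and 13.30 and Pros1 between 11.16 and 11.28 on the 4 arrays. F5, the cofactor of activated factor X, had -0.05 and -0.11 (adjusted p = 0.618).

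Among the other plasma proteins, Fetub encodes fetuin-B, a protease inhibitor required for female fertility, and Ahsg encodes fetuin-A, a mineral-binding glycoprotein. The genes are neighbours on the reference. Fetub had 12.65 on LASS2-/- HFD and 12.80 on WT HFD, against 13.37 on LASS2-/- chow and 13.20 on WT chow. It was 1.65-fold lower in LASS2-/- and 1.32-fold lower in wild type, and fell by 0.56 ± 0.10 log2 (adjusted p = 0.00158). Ahsg had 14.82 on LASS2-/- HFD and 14.96 on WT HFD, against 15.16 on LASS2-/- chow and 15.12 on WT chow. It fell by 0.25 ± 0.08 log2 at the edge of the threshold (adjusted p = 0.0499), and it passed only with robust moderation among the 7 alternatives. Hrg, histidine-rich glycoprotein and the gene next to Fetub, had -0.22 in LASS2-/- and -0.15 in wild type, and Vtn, the adhesive protein vitronectin, had -0.24 and -0.14. Neither passed (adjusted p = 0.16 and 0.127).

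**Figure D3:**
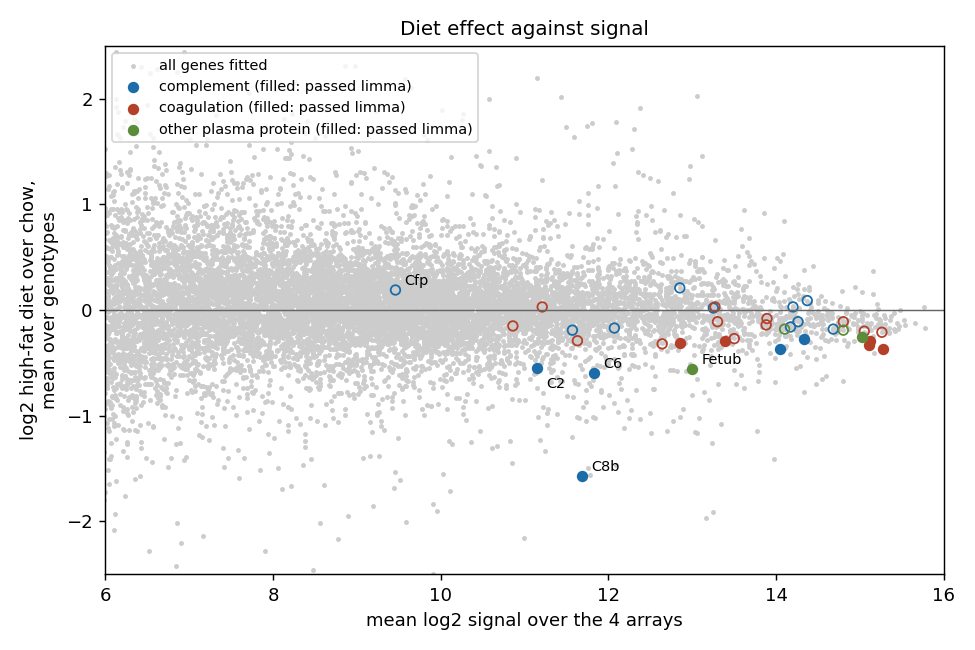
Mean log2 effect of the high-fat diet over both genotypes against mean log2 signal over the 4 arrays. Grey points are all genes fitted, coloured circles the members by system, and filled circles passed limma. The brightest genes lie mostly below 0, and C8b stands at -1.57 among genes of like signal. A further 1143 genes lie outside the drawn range.

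At a threshold of 1.5-fold on single arrays, 2 members were lower on the high-fat diet in LASS2-/-, C8b and Fetub, where 7.23% of all genes were. In wild type 3 were lower, C8b, C6 and C2, and 0 higher, where 5.13% and 7.72% of all genes were. Cfp alone was higher by that size, in LASS2-/- and by its brighter probe set, where 10.2% of all genes were. With quantile normalization 0 members were. At 2-fold, C8b alone remained in each genotype.

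The diet ratio was further below 0 in wild type for C8b, C6, C2, F12, F7, F13b and F11, and further below 0 in LASS2-/- for Fetub, Kng1, Ahsg, C8a and Plg. With 1 array per group the difference between genotypes could not be tested. For C8b the log2 genotype ratio on high-fat diet exceeded that on chow by 0.33, for C6 by 0.37, for F12 by 0.46 and for F7 by 0.49, while for Fetub it was lower, with a difference of -0.31.

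No member passed the test for the genotype label. Of the 36 members, 0 passed limma for the mean of both diets, where 0.514% of all genes rose, 0.338% fell and 0.852% passed in either direction. Another 3 had an unadjusted p under 0.05 without passing, C6, Klkb1 and C2, where 10.3% of all genes had one, and between 0 and 3 had one under each alternative. No member reached 1.5-fold between the arrays labelled LASS2-/- and WT on either diet, where 5.75% of all genes were higher and 3.33% lower on high-fat diet, and 5.7% and 3.37% on chow. The median log2 genotype ratio was 0.03 on high-fat diet and 0.01 on chow for complement, and -0.02 and 0.01 for coagulation. With equal array medians both medians on chow were -0.09.

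**Figure D4:**
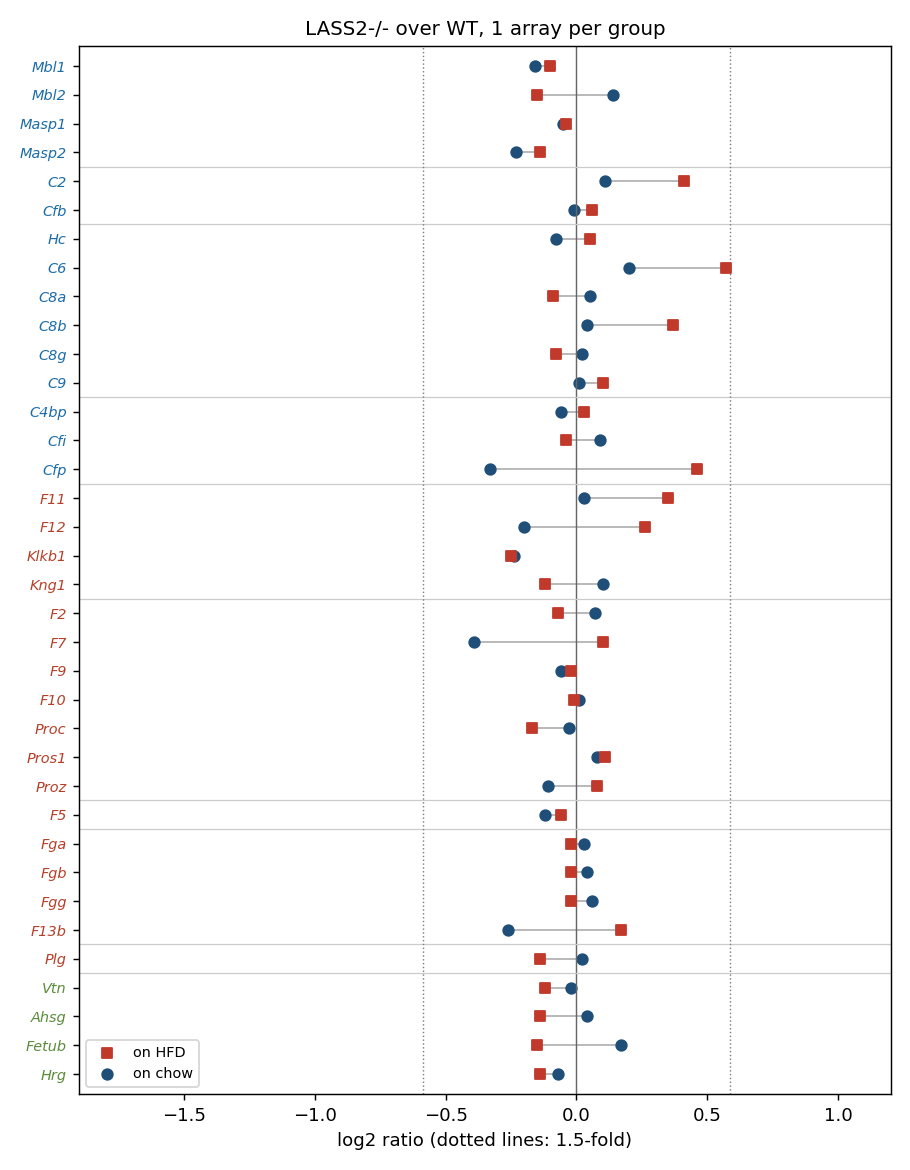
Log2 ratio of LASS2-/- over wild type for each member, on high-fat diet (red squares) and on chow (blue circles), 1 array per group, on the same scale as the diet ratios. Dotted lines mark 1.5-fold, which no member crosses on either diet.

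C6 had the largest genotype ratio, 1.49-fold higher on the array labelled LASS2-/- on high-fat diet and 1.15-fold higher on chow (limma, 0.39 ± 0.11 log2, adjusted p = 0.164). C2 was 1.33-fold and 1.08-fold higher (adjusted p = 0.44). Klkb1 was lower by similar amounts on both diets, 1.19-fold on high-fat diet and 1.18-fold on chow (adjusted p = 0.277). Both arrays labelled LASS2-/- lay below both WT arrays in Klkb1, F9 and F5, where 13.4% of all genes did, and above them in F11 and Pros1, where 14.8% did. In 21 of 36 members the genotype ratios on the diets had opposite signs, against 43% of all genes. At a mean log2 signal from 14 to under 17 this held for 13 of 16 members and 150 of 274 genes.

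Genes of the same systems that are not members were counted from separate lists. Of 22 other complement genes, 16 had a probe set of their own and 15 entered the fit, of which 1 rose and 2 fell with the high-fat diet and 0 passed for genotype. C1ra, a protease of the first component, fell by 0.42 ± 0.09 log2 (adjusted p = 0.00979) and Cfhr2, a factor H related protein, by 0.34 ± 0.08 (adjusted p = 0.02). Cd59a, which blocks the membrane attack complex on the body's own cells, had 11.86 on LASS2-/- HFD and 12.24 on WT HFD, against 11.31 on LASS2-/- chow and 11.65 on WT chow. Both high-fat arrays were above both chow arrays, and Cd59a rose by 0.58 ± 0.10 log2 (adjusted p = 0.00168).

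Of 23 other coagulation genes, 20 had a probe set and 18 entered the fit, of which 0 rose and 1 fell with the diet and 0 passed for genotype. The 1 gene was Lman1, a cargo receptor for clotting factors V and VIII, at -0.35 ± 0.09 log2 (adjusted p = 0.0211). Serpinc1, antithrombin, had log2 signals of 14.89 on LASS2-/- HFD and 14.97 on WT HFD, against 15.17 on LASS2-/- chow and 15.12 on WT chow, and did not pass (adjusted p = 0.0809).

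Of 14 acute-phase genes outside both systems, 9 were higher on the high-fat diet in both genotypes and 4 lower in both, where 4375 and 3788 of 12444 genes were. Fibrinogen is itself an acute-phase protein, induced by interleukin-6 in inflammation. Of the 14 genes on this separate list, 7 rose and 0 fell with the high-fat diet in limma, where 6.16% and 5.02% of all genes did. Their median log2 ratios were 0.33 in LASS2-/- and 0.23 in wild type. The 4 that were lower in both genotypes were Orm1, Hpx, Itih3 and Itih4, and none passed (Orm1 -0.25 ± 0.07 log2, adjusted p = 0.0501). Saa2, a serum amyloid A, had 13.20 on LASS2-/- HFD and 11.67 on WT HFD, against 10.77 on LASS2-/- chow and 10.08 on WT chow. It had a diet effect of 2.01 ± 0.15 log2 (adjusted p = 2e-06), and it was the 1 gene of the list that passed for genotype, at 1.11 ± 0.15 (adjusted p = 0.00331). The other 6 that rose with diet were Saa1, Saa3, Saa4, Orm2, Orm3 and Lcn2. Haptoglobin, encoded by Hp, stayed between 14.82 and 14.86 (adjusted p = 0.901).

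Some transcription factors of hepatocytes fell with the diet. Of 7 measured, 3 fell, 0 rose and 4 did not pass, where 5.02% of all genes fell. Onecut1 had 9.35 on LASS2-/- HFD and 7.98 on WT HFD, against 11.45 on LASS2-/- chow and 10.88 on WT chow, and fell by 2.5 ± 0.17 log2 (adjusted p = 8.36e-07). Foxa2 fell by 0.91 ± 0.16 (adjusted p = 0.00201) and Hnf4a by 0.32 ± 0.08 (adjusted p = 0.0246). For Onecut1 the genotype effect also passed, at 0.97 ± 0.17 (adjusted p = 0.0186). Their part in the fall of the members was not tested.

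Markers of other cells were read on the same arrays, since some members can come from cells other than hepatocytes. The log2 of the summed signal of 12 macrophage and Kupffer cell markers (dimmest marker 7.06) was 15.08 on LASS2-/- HFD, 14.47 on WT HFD, 14.82 on LASS2-/- chow and 14.50 on WT chow. That of 5 neutrophil markers was 9.85, 9.33, 9.42 and 9.15 in the same order, with Mpo down to 0.92 on WT HFD. Both sums and the brighter Cfp probe set were highest on LASS2-/- HFD. On LASS2-/- chow both sums were second highest while that probe set was lowest. The part of these cells in the Cfp values was not tested. With the genotype label the macrophage markers Marco (2.48 ± 0.24 log2, adjusted p = 0.000525), Mpeg1 (0.83 ± 0.11, adjusted p = 0.00319) and Lyz2 (0.64 ± 0.13, adjusted p = 0.0403) rose and Cd163 fell (-0.79 ± 0.16, adjusted p = 0.0355). With the diet Lyz2 rose (adjusted p = 0.0277) and Cd163 fell (adjusted p = 0.013). The platelet gene Pf4 rose with the diet by 1.52 ± 0.21 log2 (limma, adjusted p = 0.000311). Itga2b, the only other platelet marker in the fit, had log2 diet ratios of -0.32 in LASS2-/- and -0.04 in wild type (adjusted p = 0.722). Platelet Gp9 was at or below 2.62 on every array. The 6 endothelial markers had median log2 diet ratios of 0.01 in LASS2-/- and 0.36 in wild type, and Cdh5 rose (0.75 ± 0.17, adjusted p = 0.013). Of 5 stellate cell markers, Des fell (-2.28 ± 0.45, adjusted p = 0.00491) and Dcn rose (0.27 ± 0.08, adjusted p = 0.0499) with the diet. The Des signals on LASS2-/- HFD and WT HFD, 5.27 and 5.49, were under the array median, so the size of its fall is uncertain. With those signals set to the median, its log2 diet ratios were -1.60 in LASS2-/- and -1.33 in wild type.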

How the data were processed

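The deposited log2 signals came from MAS5, per the submitters' processing notes. For its version and settings, nothing is given in the sources used here. On the unlogged scale the mean signal, with 2% trimmed from each tail, was between 496.0 and 496.2 on the 4 arrays, so no further scaling was applied. Of 45037 probe sets, 34945 had a single gene symbol. A gene entered the fit when its brightest probe set reached the array median (between 6.17 and 6.28) on at least 1 array. For ratios, signals under that median were set to it, which concerned 0 members.

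The fit was limma 3.58.1 in R 4.3.3, additive in diet and genotype, with a variance trend in signal and Benjamini-Hochberg adjustment over all 12444 genes. With 4 arrays and 3 coefficients it has 1 residual degree of freedom, against 12.4 drawn from genes of like signal, so the standard errors after ± do not measure spread between animals. Single-array ratios received no test. The fit was also run on simulated data with independent noise at the fitted variance trend and an additive diet effect. Those data met the assumptions of the model, so that run could not test them for these arrays. Tables were handled with pandas 2.3.3 and numpy 2.4.6 in Python 3.11.15, and plots drawn with matplotlib 3.10.9.

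The members and lists were chosen with earlier results of these data known. All members are named. Of other lists, genes that passed limma are named, at most 8 per list, and other genes named from them were chosen after their values were seen. Promoters come from RefSeq on GRCm38.p6, and of 12 motifs searched the 3 marked were chosen after matches were seen. The alternatives were quantile normalization, equal array medians, other probe set rules, no filter, no trend, robust moderation, a 2-fold threshold and a floor at the 25th percentile.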

Additional observations from a re-analysis of the deposited data

Results flagged for a closer look

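Cfp, which encodes properdin, had log2 genotype ratios of opposite direction on the diets. The ratio of LASS2-/- over wild type was 0.46 on high-fat diet and -0.33 on chow, a difference of 0.78, which was not tested since each group has 1 array. A dimmer probe set of Cfp had -0.15 on high-fat diet and 0.31 on chow, the opposite order.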

How the results depend on the processing

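The number of members passing limma for diet was 12. It was 7 with quantile normalization, 7 with equal array medians, 6 with no filter and 0 without trend. With the mean of all probe sets it was 9, and with robust moderation 12. It was 11 without probe sets whose names carry an x, s or a suffix, which were kept for genes with no other kind. The cause was not tested. C8b, C6, C8a, Fgb and Fetub passed under all of these other than the fit without trend, where C8b had adjusted p = 0.316. Each of these 5 genes has 1 probe set, so the probe set rules could not change its signal. Masp1, at -0.17 and not passing, reversed to 0.71 with the mean of all 5 probe sets, of which 1 lay below the array median on all arrays. The other 4 averaged 0.15. For genotype 0 members passed under any of the 7 alternatives. At 2-fold in place of 1.5-fold, 1 member was apart with the diet in LASS2-/- and 1 in wild type, against 3 and 3.

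Over all genes, limma passed 1392 of 12444 for diet, against 1063 with quantile normalization, 872 with equal medians and 0 without trend. With the mean of all probe sets 719 of 11083 passed, and with no filter 1084 of 18193. Without the suffixed probe sets 1334 of 12074 passed, and with robust moderation 1295 of 12444. For genotype it passed 106, against 22 with quantile normalization, 19 with equal medians, 39 with the mean of all probe sets, 52 with no filter and 0 without trend. With equal medians the split of genes 1.5-fold apart was 1610 higher and 693 lower with the diet in LASS2-/-, against 1267 and 900, and 464 higher and 666 lower with genotype on chow, against 709 and 419. At 2-fold, 245 and 198 genes were apart with genotype on high-fat diet and chow, against 1129 and 1128, and 625 and 421 with diet in LASS2-/- and wild type, against 2167 and 1599. A lower floor, the 25th percentile of each array, set 1974 and 2041 genes apart with genotype and 2518 with diet in wild type. No paired analysis was possible because the labels carry no replicate numbers. Group sizes of 1 leave no replicate to omit.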

Other observations

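Complement component C4 was not among the members. Its probe set is shared by C4a and C4b, and it had log2 signals of 14.31 on LASS2-/- HFD and 14.27 on WT HFD, against 14.30 on LASS2-/- chow and 14.22 on WT chow.

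The C1q chains, which start the classical pathway and are made by macrophages, had higher signals on the arrays labelled LASS2-/-. C1qa had 11.64 on LASS2-/- HFD and 10.98 on WT HFD, and 11.22 on LASS2-/- chow and 11.10 on WT chow. The genotype effect did not pass limma for C1qa (0.39 ± 0.13 log2, adjusted p = 0.259), C1qb (0.33 ± 0.11, adjusted p = 0.272) or C1qc (0.41 ± 0.13, adjusted p = 0.225), although the ratios were above 0 on both diets in all 3.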
